A study of Mus musculus with 18 samples.

Results

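A group of 8 genes of iron-sulfur cluster assembly was followed through the first 2 days of erythroid differentiation and after knockdown of either of 2 RNA-binding proteins. The genes were taken by symbol from a list (Nfs1, Iscu, Fdxr, Hscb, Glrx5, Glrx3, Bola2 and Ciapin1) out of 46167 genes with summed reads, and all 8 were among the 17500 genes that passed the filter on low counts. The cells were hematopoietic progenitors enriched from E14.5 fetal livers of CD-1 mice, with an antibody to CD71 added to the enrichment mix, and all of them had been infected with an MSCV-PIG retrovirus, which carries puromycin resistance and GFP beside an shRNA. Control libraries carried a scrambled hairpin (SCR-1 and SCR-2) or a luciferase hairpin (LUC-1), PCBP1 knockdown libraries carried hairpin 1, 3 or 4 against Pcbp1, and PCBP2 knockdown libraries carried hairpin 1, 3 or 4 against Pcbp2. Each of these 3 conditions was sampled after 48 hours in expansion medium with dexamethasone, erythropoietin and stem cell factor (Day 0) and after 2 further days in differentiation medium with a higher dose of erythropoietin (Day 2), which gave 6 groups of 3 libraries. The labels do not say whether the 3 libraries of a group came from separate litters or infections, so every p-value measures the spread between these libraries only.

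Iron-sulfur clusters are cofactors built from iron and sulfide. In mitochondria the desulfurase Nfs1 supplies sulfur to the scaffold Iscu, electrons arrive from the ferredoxin reductase Fdxr by way of a ferredoxin, the co-chaperone Hscb brings the loaded scaffold to the chaperone Hspa9, and the glutaredoxin Glrx5 takes over the cluster. In the cytosol Glrx3 and Bola2 form a complex that passes clusters to Ciapin1, also called anamorsin, which works with the reductase Ndor1. Erythroid cells depend on these clusters for ferrochelatase, the last enzyme of heme synthesis, and for the switch of Aco1 between aconitase and iron-regulatory protein; loss of GLRX5 or HSCB in people gives sideroblastic anemia. PCBP1 and PCBP2 bind C-rich RNA and also carry iron, and PCBP1 has been shown to form an iron-handing complex with BolA2.

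Splicing choices in 4 of the 8 genes carry part of the results, and the sequences at these choices are given here from GENCODE M21 transcripts on GRCm38, read 5′ to 3′ on the gene's strand. Ciapin1 lies on the minus strand of chromosome 8 from 94819804 to 94838358. Its next-to-last coding exon (chr8:94823653-94823731, 79 bases, in capitals) follows an intron whose last 60 bases are in lower case.
Ciapin1 exon: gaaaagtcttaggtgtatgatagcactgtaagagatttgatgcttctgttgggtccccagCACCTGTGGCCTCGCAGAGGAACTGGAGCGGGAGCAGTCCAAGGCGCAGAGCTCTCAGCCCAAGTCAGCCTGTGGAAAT
Fdxr lies on the minus strand of chromosome 11 from 115268024 to 115277050, and its 85-base coding exon (chr11:115270015-115270099, in capitals) is shown between the ends of the neighbouring exons.
Fdxr exon: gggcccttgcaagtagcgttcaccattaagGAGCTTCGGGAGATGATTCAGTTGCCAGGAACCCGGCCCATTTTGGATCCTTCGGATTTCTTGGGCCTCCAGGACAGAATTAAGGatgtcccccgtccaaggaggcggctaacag
Iscu lies on the plus strand of chromosome 5 from 113772748 to 113778288, and one of its exons can end at either of 2 donor sites, with the exon's last bases in capitals and the intron's first in lower case. The first line is chr5:113776835-113776864 and the second chr5:113777067-113777090.
Iscu first donor: AACTGCACTGCTCCAgtgagtctgccccac
Iscu second donor: CAGAAAGCAGAAgtaagacgtcac
Hscb lies on the minus strand of chromosome 5 from 110829070 to 110839777, and one of its exons can take 5 more bases, a number that is not a multiple of 3. They are in capitals (chr5:110835975-110835979) at the end of the stretch chr5:110835975-110836009.
Hscb exon end: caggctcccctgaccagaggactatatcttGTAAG

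Sequencing depth was 27.0 to 54.1 M estimated reads a library. Pcbp1 was at 185.6 to 205.7 normalised CPM (read counts scaled by library size) in Day 0 controls and 14.2 to 59.4 CPM in the PCBP1 knockdown. Pcbp2 fell from 282 to 299 CPM in controls to between 70.3 and 73.5 CPM in the PCBP2 knockdown. Both stayed reduced at Day 2. In the PCBP1 knockdown at Day 2 Pcbp2 was at 180.7 to 215 CPM, also below every control (224.7 to 247.2 CPM). That difference did not pass edgeR's test (log2 -0.25 ± 0.09 SE, adjusted p 0.0815). The summed level of 8 erythroid markers was 2113 to 2793 CPM over the Day 0 libraries. At Day 2 it was 265400 to 387900 CPM in controls, 211800 to 219300 CPM with PCBP1 knocked down and 212300 to 264600 CPM with PCBP2 knocked down, so both knockdowns lay below every control. The 4 progenitor markers went from between 490.1 and 594.9 CPM to between 21.3 and 28.83 CPM, and hepatocyte markers were at most 0.3898 CPM at Day 2. At Day 0 the hepatocyte markers summed to 9.148 to 11.08 CPM in controls, 9.926 to 11.86 CPM with PCBP2 knocked down and 3.447 to 7.464 CPM with PCBP1 knocked down. In the same order the progenitor markers summed to 542.2 to 555.8, 524.9 to 594.9 and 490.1 to 522.2 CPM at Day 0. The 5 macrophage markers summed to 25.01 to 27.08, 21.94 to 22.7 and 19.17 to 22.29 CPM. The summed level of 5 neutrophil markers was 419 to 614 CPM at Day 2 in all 3 conditions, against 646.8 to 769.2 CPM at Day 0. Globin genes took 0.301 to 0.485% of reads at Day 0 and 24.7 to 33.5% at Day 2. In bulk libraries fewer cells of a type and less RNA per cell cannot be told apart. The part of these marker differences in the results below was not tested.

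**Figure D1:**
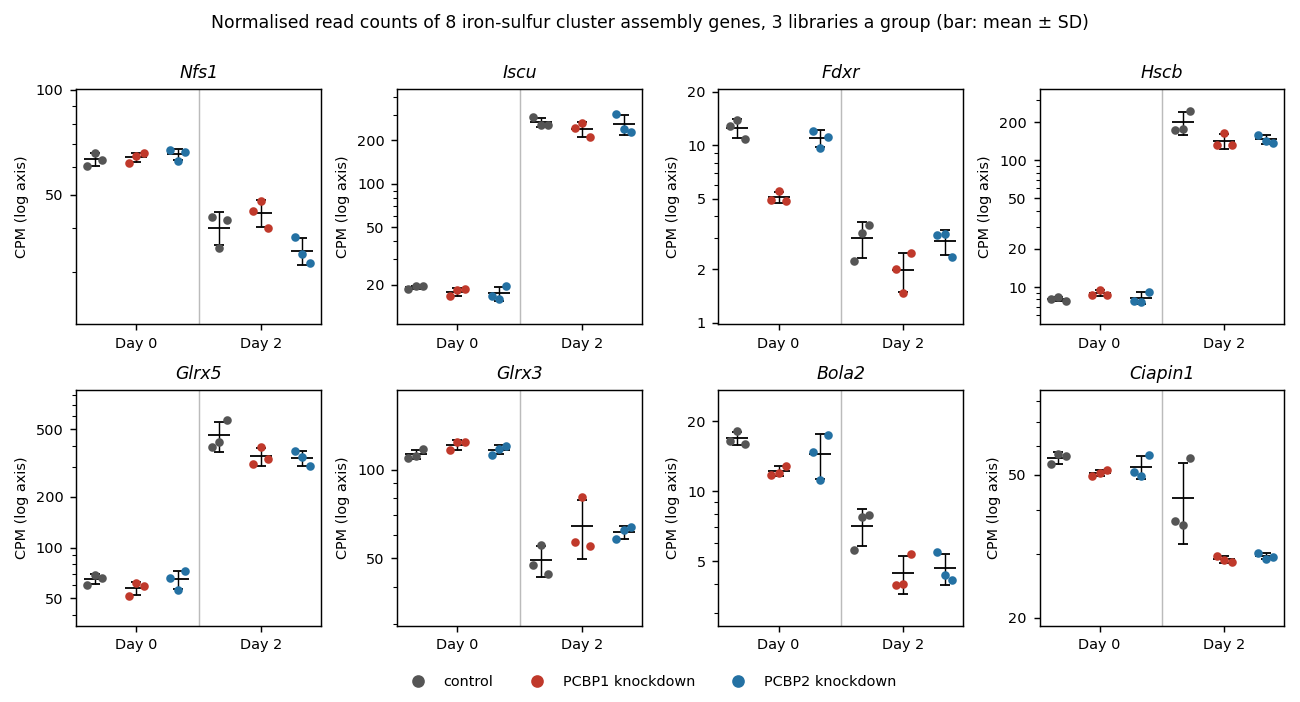
Normalised read counts (CPM, log axis) of the 8 genes in each of 18 libraries; points are libraries, bars the mean ± SD of 3 libraries, colours the condition, and the vertical line parts Day 0 from Day 2. Iscu, Hscb and Glrx5 sit higher at Day 2 in every condition, Fdxr is low in the 3 PCBP1 knockdown libraries at Day 0, and Ciapin1 in the Day 2 knockdowns lies between 28.5 and 30.3 CPM, below all 3 controls.

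Differentiation split the 8 genes. In control libraries the scaffold Iscu, its co-chaperone Hscb and the cluster acceptor Glrx5 rose, while the desulfurase Nfs1, the reductase Fdxr and the 3 cytosolic factors Glrx3, Bola2 and Ciapin1 fell. All 8 passed edgeR's quasi-likelihood test at an adjusted p under 0.05, but so did 82.9% of all genes tested (40.5% higher and 42.4% lower), so being called does not set the 8 genes apart. The median log2 change of the 8 was -0.51, against -0.05 over all tested genes.

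Hscb had the largest rise of the 8. Control libraries held 8.10, 8.35 and 7.77 CPM at Day 0 and 174.5, 177.6 and 245.0 CPM at Day 2, given in the order SCR-1, SCR-2, LUC-1 here and below, with LUC-1 the highest of the 3. The rise was 24.6-fold (log2 4.62 ± 0.14 SE, adjusted p 1.56e-17). Iscu went from 18.7, 19.6 and 19.5 CPM to 289.5, 254.8 and 254.8 CPM, a 13.8-fold rise (log2 3.79 ± 0.13 SE, adjusted p 5.97e-17). No library of one day reached those of the other. Glrx5, on chromosome 12 from 105032688 to 105042906 (plus strand), went from 59.9, 68.4 and 66.3 CPM to 394.8, 423.7 and 568.5 CPM, a 7.12-fold rise (log2 2.83 ± 0.14 SE, adjusted p 3.5e-14), again with LUC-1 highest at Day 2.

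Among the mitochondrial genes that fell, Fdxr dropped most, from 12.8, 13.9 and 10.9 CPM to 2.23, 3.20 and 3.55 CPM (log2 -2.07 ± 0.18 SE, adjusted p 8.85e-10). At Day 2 only 44 to 66 reads were assigned to Fdxr in a control library. Nfs1, on chromosome 2 from 156123639 to 156144186 (minus strand), went from 60.7, 65.8 and 63.0 CPM to 43.1, 35.2 and 42.3 CPM (log2 -0.65 ± 0.10 SE, adjusted p 3e-06). Nfs1 shares 256 exonic bases with Gm28036 on the same strand, which itself reached 42.0 CPM, so the split of reads between these 2 genes is uncertain.

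The 3 cytosolic genes fell less than Fdxr. Glrx3, on chromosome 7 from 137437614 to 137468594 (plus strand), had 109.7, 111.1 and 117.7 CPM at Day 0 and 47.6, 55.7 and 44.3 CPM at Day 2 (log2 -1.20 ± 0.12 SE, adjusted p 5.76e-09). Its partner Bola2, on chromosome 7 from 126695401 to 126699798 (plus strand), moved by nearly the same factor, from 16.5, 18.1 and 16.0 CPM to 5.58, 7.75 and 7.86 CPM (log2 -1.26 ± 0.17 SE, adjusted p 6.24e-07). Ciapin1 had 53.5, 57.3 and 56.4 CPM at Day 0 and 37.2, 36.3 and 55.7 CPM at Day 2 (log2 -0.37 ± 0.12 SE, adjusted p 0.00696). Here LUC-1 at Day 2 lay inside the Day 0 range, so the groups overlapped. Bola2 shares 360 exonic bases with Slx1b and Ciapin1 38 with Coq9 on the opposite strand, and reads from overlapping genes cannot be told apart where strand was not recorded; whether it was is not stated.

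The same directions held for all 8 genes in both knockdowns, each past the test (82% of all genes were called in the PCBP1 knockdown, 40.3% higher and 41.7% lower, and 83.1% in the PCBP2 knockdown, 41% higher and 42.2% lower). With PCBP1 and PCBP2 knocked down, Hscb rose by log2 3.99 ± 0.14 and 4.16 ± 0.14, Iscu by 3.75 ± 0.13 and 3.88 ± 0.13, and Glrx5 by 2.59 ± 0.14 and 2.39 ± 0.14 (SE). The sizes depend on the scaling between days. With library totals in place of TMM factors, the median of all genes shifted from -0.05 to -1.68 in controls, and the changes became 2.98 for Hscb, 2.16 for Iscu, 1.19 for Glrx5, -2.02 for Ciapin1, -2.29 for Nfs1, -2.83 for Glrx3, -2.90 for Bola2 and -3.71 for Fdxr. No direction turned: the 3 risers stayed above 0 and the other 5 below it.

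**Figure D2:**
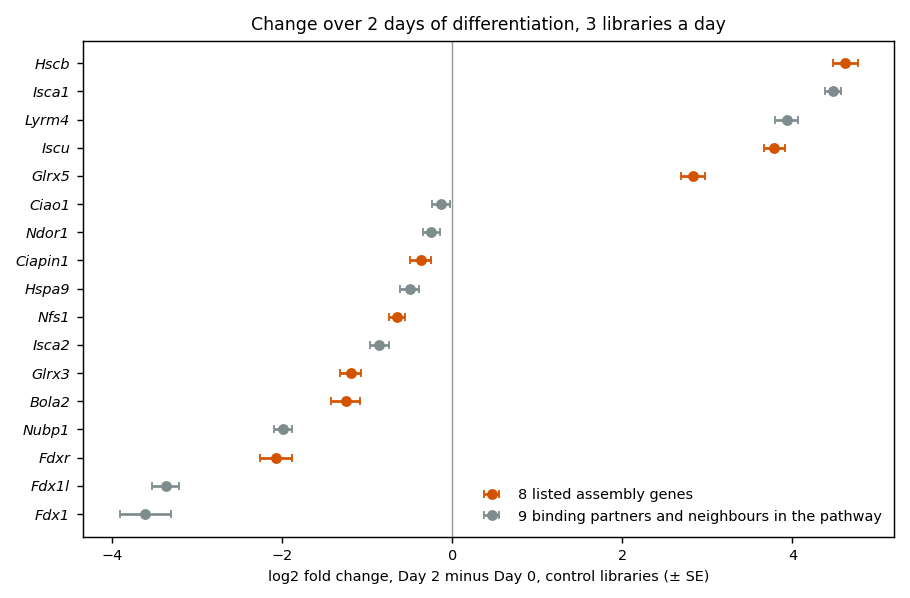
Log2 fold change (± SE) from Day 0 to Day 2 in control libraries for the 8 assembly genes and 9 of their partners in the pathway. Hscb, Iscu and Glrx5 lie to the right with the partners Isca1 (4.48) and Lyrm4 (3.93), and all other genes shown lie left of 0.

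Partners of the 8 genes were split as well. Lyrm4, the small protein that binds and stabilises Nfs1, rose by log2 3.93 ± 0.13 SE, and Isca1, which acts in making 4Fe-4S clusters, by 4.48 ± 0.09 SE. The 2 ferredoxins Fdx1 and Fdx1l, which take electrons from Fdxr, fell by 3.61 and 3.37 on the log2 scale, and the chaperone Hspa9, partner of Hscb, fell by 0.50. Day 2 control libraries held only 1 to 10 reads of Fdx1 and 27 to 42 of Fdx1l, so the sizes of these 2 falls are uncertain. Isca2 fell by 0.86. In the cytosolic arm Nubp1, a scaffold protein, fell by 1.99 and Ndor1, the partner of Ciapin1, by 0.25, while Ciao1, of the targeting complex, did not pass the test (log2 -0.13 ± 0.10 SE, adjusted p 0.244). All other named changes in this paragraph passed the test (adjusted p at most 0.0302).

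Counted over lists, 6 of 22 further mitochondrial assembly genes rose and 16 fell in controls (median log2 change -1.20). The 4 risers with the smallest p were Isca1, Lyrm4, the mitochondrial iron importer Slc25a37 (3.26 ± 0.14) and Bola3 (2.11 ± 0.13), and the 4 such fallers were Fdx1l, Nfu1 (-2.36 ± 0.12), Grpel2 (-2.13 ± 0.14) and Ndufaf5 (-2.53 ± 0.18). Of 9 further cytosolic assembly genes none rose and 8 fell, Nubp1, Ciao2a (-1.6 ± 0.10), Mms19 (-1.30 ± 0.11) and Narfl (-1.77 ± 0.15) among them; Ciao1 was the ninth. Of 37 tested genes for proteins that carry iron-sulfur clusters, 3 rose and 32 fell (median -1.95). The 3 risers were ferrochelatase (Fech, 3.56 ± 0.11), the interferon-induced enzyme viperin (Rsad2, 7.94 ± 0.34) and Cisd2 (0.33 ± 0.09), and Cisd2 turned to -1.31 with library totals. Aco1 (-4.26 ± 0.18), Elp3 (-3.48 ± 0.15), Uqcrfs1 (-1.98 ± 0.10) and Dna2 (-2.86 ± 0.16) led the fallers. Among 13 iron regulation genes 6 rose and 6 fell: Alas2 (7.54 ± 0.15), the ferritin light chain Ftl1 (5.14 ± 0.14), Ncoa4 (3.71 ± 0.15) and the transferrin receptor Tfrc (2.27 ± 0.10) rose, and Fbxl5 (-2.39 ± 0.15), Ireb2 (-1.21 ± 0.09), Pcbp4 (-4.76 ± 0.43) and Pcbp3 (-3.33 ± 0.31) fell. These changes are log2 values ± SE.

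Levels can be compared between genes only per length, as TPM (transcript abundance scaled by length and library). In Day 0 controls Ciapin1 (181.8 ± 3.9 TPM, SD, n = 3) and Glrx5 (180.2 ± 11.3) were highest and overlapped, followed by Glrx3 (157.2 ± 0.27) and Nfs1 (72.0 ± 3.9). Bola2 (55.6 ± 1.7) and Iscu (52.8 ± 3.0) overlapped, and Hscb (31.96 ± 1.7) and Fdxr (15.6 ± 2.8) were lowest. At Day 2 the order was Glrx5 (306.9 ± 23.1), then Hscb (210.7 ± 18.4) and Iscu (205.5 ± 37.1), which overlapped, then Ciapin1 (35.4 ± 6.1), Glrx3 (17.0 ± 3.2) and Nfs1 (11.8 ± 1.8), of which the last 2 overlapped, then Bola2 (4.85 ± 1.83) and Fdxr (1.09 ± 0.15). Hscb and Iscu thus went from below Nfs1 to far above it on the TPM scale, which shares the library total with the globins.

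PCBP1 knockdown at Day 0 lowered one of the 8 genes, the reductase Fdxr. The 3 control libraries had 12.8, 13.9 and 10.9 CPM, the PCBP1 knockdown libraries 4.90, 5.51 and 4.86 CPM with hairpins 1, 3 and 4, and the PCBP2 knockdown libraries 12.1, 9.71 and 11.1 CPM. All 3 PCBP1 hairpins gave values near 5 CPM that overlapped neither of the other groups. The hepatocyte and progenitor markers, given above, were lower in the same 3 libraries, also without overlap with either other group. The macrophage markers were below every control there, but overlapped the PCBP2 knockdown. The part of these markers in the Fdxr difference was not tested. Fdxr fell 2.47-fold (log2 -1.30 ± 0.16 SE, edgeR adjusted p 0.000437), in a comparison where 0.834% of tested genes were called lower, 0.0457% higher and 0.88% in all. The direct comparison of the knockdowns had Fdxr 2.15-fold higher in the PCBP2 than in the PCBP1 knockdown (log2 1.11 ± 0.16 SE, adjusted p 0.00272; 0.263% of genes called higher, 0.0171% lower and 0.28% in all). In the PCBP2 knockdown Fdxr differed from control by log2 -0.20 ± 0.16 SE (adjusted p 1). The Fdxr call held under every alternative run for that comparison, with log2 values from -1.01 with the GC trend removed to -1.40 without LUC-1.

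No other of the 8 genes passed the test in either knockdown at Day 0. Bola2 came closest: its PCBP1 knockdown libraries had 11.7, 11.9 and 12.9 CPM against 16.0 to 18.1 CPM in controls, without overlap, but log2 -0.47 ± 0.16 SE had an adjusted p of 0.203. Per length these libraries overlapped, with 52.85 to 58.16 TPM in the PCBP1 knockdown and 53.88 to 57.2 TPM in controls. In the PCBP2 knockdown none of the 8 was called by edgeR, none had an unadjusted p under 0.05, and DESeq2 called none either; 0.0229% of all genes were called. Iscu, Nfs1, Glrx5, Glrx3, Hscb and Ciapin1 lay within log2 -0.17 and 0.15 of control in both knockdowns. None of the 22 mitochondrial, 9 cytosolic or 37 iron-sulfur protein genes was called at Day 0 either; at an unadjusted p under 0.05 there were 2, 1 and 6 with PCBP1 knocked down and 0, 0 and 1 with PCBP2 knocked down, and the ferredoxin Fdx1l differed by log2 -0.37 ± 0.13 SE in the PCBP1 knockdown (adjusted p 0.206).

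**Figure D3:**
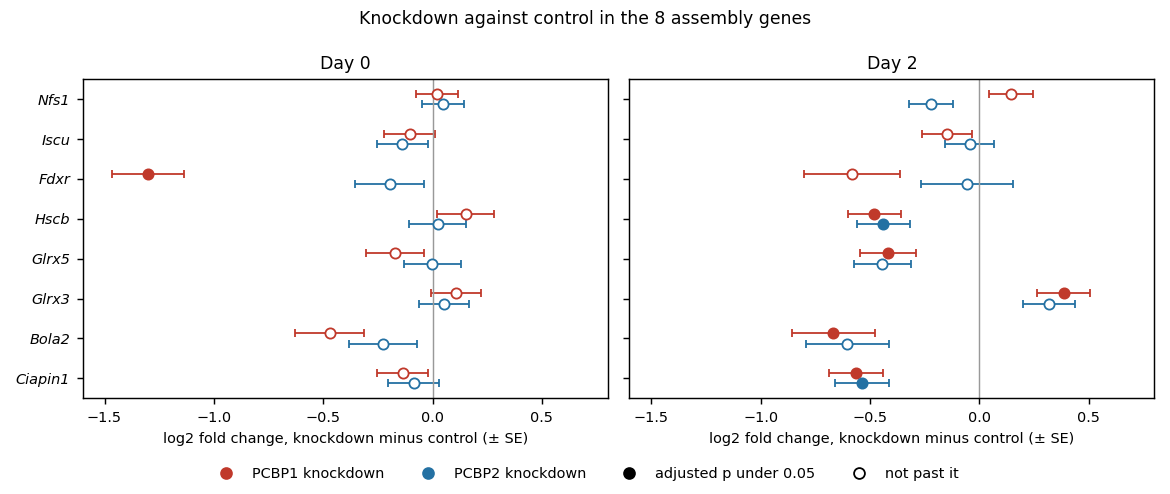
Log2 fold change (± SE) of each knockdown against the control libraries of the same day; filled points passed an adjusted p of 0.05 in edgeR's test. Fdxr (-1.30) is the only filled point at Day 0, and at Day 2 Hscb and Ciapin1 are filled in both knockdowns.

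By Day 2 more of the genes differed from control. With PCBP1 knocked down Ciapin1, Hscb, Bola2 and Glrx5 fell and Glrx3 rose, 5 of 8 genes called where 7.61% of all genes were called lower and 5.51% higher, 13.1% in all. The median log2 change of the 8 was -0.45, against 0.02 over all tested genes. In the PCBP2 knockdown Ciapin1 and Hscb fell, with 3.75% of all genes called lower and 0.949% higher (4.7% in all), and the median of the 8 was -0.33 against -0.01. Both knockdowns were set against the same 3 control libraries.

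Ciapin1 was at 37.2, 36.3 and 55.7 CPM in the control libraries, LUC-1 last. It was at 29.8, 29.04 and 28.5 CPM with Pcbp1 hairpins and at 30.3, 29.1 and 29.6 CPM with Pcbp2 hairpins. In CPM the 6 knockdown libraries lay close together and below every control, and LUC-1 stood above the other controls. Ciapin1 fell by 0.56 ± 0.12 (log2, SE; adjusted p 0.00443) in the PCBP1 knockdown and by 0.54 ± 0.12 (adjusted p 0.0164) in the PCBP2 knockdown. Without LUC-1 the changes were -0.35 and -0.36 and still passed the test.

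Hscb was at 131.2, 164.8 and 131.8 CPM with Pcbp1 hairpins and at 159.4, 143.0 and 137.7 CPM with Pcbp2 hairpins, all below the control libraries (174.5, 177.6 and 245.0 CPM). Hscb fell by 0.48 ± 0.12 (log2, SE; adjusted p 0.012) and by 0.44 ± 0.12 (adjusted p 0.0418). Glrx5 was at 312.9, 391.4 and 333.7 CPM with Pcbp1 hairpins and at 374.0, 341.3 and 304.1 CPM with Pcbp2 hairpins, again below every control (394.8 to 568.5 CPM). It fell by 0.42 ± 0.13 (adjusted p 0.0374) in the first, while -0.44 ± 0.13 in the second had an adjusted p of 0.0531. Without LUC-1, whose values were the highest of both genes, neither Hscb (-0.32 in both knockdowns, adjusted p 0.0554 and 0.0723) nor Glrx5 (-0.26 in the PCBP1 knockdown, adjusted p 0.189) passed. Glrx5 also missed the threshold in the PCBP1 knockdown without hairpin 1 (-0.34, adjusted p 0.129) or hairpin 4 (-0.39, adjusted p 0.0904), and Hscb in the PCBP2 knockdown without hairpin 3 (-0.46, adjusted p 0.0595) or hairpin 4 (-0.42, adjusted p 0.085).

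Bola2 was at 5.58, 7.75 and 7.86 CPM in control libraries, at 3.95, 3.97 and 5.37 CPM with Pcbp1 hairpins and at 5.46, 4.37 and 4.15 CPM with Pcbp2 hairpins, on 70 to 160 reads a library. In CPM Bola2 fell by 0.67 ± 0.19 (adjusted p 0.0226) in the PCBP1 knockdown, and -0.60 ± 0.19 in the PCBP2 knockdown had an adjusted p of 0.0729. Its complex partner Glrx3 went the other way, with 47.6, 55.7 and 44.3 CPM in controls and 57.0, 80.9 and 55.1 CPM in the PCBP1 knockdown, where hairpin 3 was the highest and hairpin 4 lay inside the control range. Glrx3 rose by 0.38 ± 0.12 (adjusted p 0.0377) there, and 0.32 ± 0.12 in the PCBP2 knockdown (58.0, 62.3 and 63.8 CPM) had an adjusted p of 0.143. With PCBP1 knocked down Bola2 did not pass without LUC-1 (-0.60, adjusted p 0.0868), SCR-2 (-0.55, adjusted p 0.1), hairpin 1 (-0.58, adjusted p 0.109) or hairpin 3 (-0.55, adjusted p 0.0883), and Glrx3 did not without LUC-1 (0.30, adjusted p 0.141), SCR-1 (0.38, adjusted p 0.0583) or hairpin 3 (0.23, adjusted p 0.154). Per length Bola2 did not fall: controls had 3.70 to 6.97 TPM and the PCBP1 knockdown 4.44 to 7.45 TPM. The PCBP2 knockdown had 5.5 to 5.66 TPM, inside the control range. Ciapin1, Hscb and Glrx5 overlapped their controls per length as well. Controls had 30.17 to 42.07 TPM of Ciapin1, against 29.6 to 32.27 TPM in the PCBP1 and 31.02 to 32.14 TPM in the PCBP2 knockdown. For Hscb these ranges were 192.1 to 228.9, 183 to 222.2 and 182.3 to 207.4 TPM. Those of Glrx5 were 289.3 to 333.1, 277 to 336.2 and 248.6 to 295.8 TPM. With PCBP1 and PCBP2 knocked down Glrx3 had 24.32 to 35.1 and 22.4 to 27.24 TPM, above every control (13.33 to 19.36 TPM). Why CPM and TPM differed was not tested.

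The scaffold Iscu lay at 210.1 to 304.9 CPM in all 9 Day 2 libraries and passed no knockdown test (log2 -0.15 ± 0.11 and -0.05 ± 0.11 SE, adjusted p 0.436 and 0.878). Fdxr had 2.00, 1.48 and 2.47 CPM in the PCBP1 knockdown and 2.23, 3.20 and 3.55 CPM in controls, on 26 to 66 reads, and the difference of -0.58 ± 0.22 had an adjusted p of 0.0865; without SCR-1 it passed (-0.72, adjusted p 0.039). Nfs1 differed between the knockdowns themselves: it was at 45.0, 48.1 and 40.0 CPM in the PCBP1 knockdown and 37.9, 33.8 and 31.9 CPM in the PCBP2 knockdown, a difference of log2 -0.36 ± 0.10 SE (adjusted p 0.023; 7.3% of genes called lower, 4.79% higher and 12.1% in all), while neither differed from control past the test. Without hairpin 4 against Pcbp2 it had an adjusted p of 0.0506, and with a replicate block 0.153. Per length Nfs1 had 15.18 to 17.64 TPM in the PCBP1 knockdown, above every control (10.38 to 13.79 TPM). The PCBP2 knockdown had 11.93 to 12.94 TPM of Nfs1, inside the control range.

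These Day 2 calls rest on a spread estimated over all 18 libraries. The common dispersion, edgeR's measure of the spread within groups, was 0.0169 in that fit. It was 0.00749 with the 9 Day 0 libraries alone and 0.0293 with the 9 Day 2 libraries alone, so the Day 2 spread was above the value used. When the 9 Day 2 libraries were fitted alone none of the 8 genes passed in either knockdown or between them; Ciapin1 then had adjusted p 0.0632 and 0.176 at log2 values of -0.55 and -0.52. With library totals, which moved the median of all genes to 0.25 in the PCBP1 knockdown and 0.19 in the PCBP2 knockdown, Ciapin1 and Glrx3 kept their calls in the PCBP1 knockdown, Nfs1 gained one (0.37 higher), and Hscb, Glrx5 and Bola2 lost theirs; in the PCBP2 knockdown the single call was Glrx3 (0.52 higher), and Ciapin1 had an adjusted p of 0.0754. Removal of the GC trend left Ciapin1 at -0.44 in the PCBP2 knockdown (adjusted p 0.0761).

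Whether a knockdown effect changed between days was tested directly, and no gene of the 8 passed (0.389% of all genes were called for PCBP1, 0.137% higher and 0.251% lower, and 0% for PCBP2, where 1594 of 17500 had an unadjusted p under 0.05). For Hscb the PCBP1 knockdown effect was lower at Day 2 than at Day 0 by log2 0.63 ± 0.18 SE (adjusted p 0.114), and DESeq2 called this difference (adjusted p 0.0242), as did edgeR without SCR-1 at Day 2 (adjusted p 0.0482) or without Pcbp1 hairpin 3 (adjusted p 0.0391). For Fdxr the change of the PCBP1 effect was 0.72 ± 0.27 SE (adjusted p 0.255), so a smaller effect at Day 2 was not shown.

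Other assembly genes at Day 2 moved in both directions. With PCBP1 knocked down 2 of 22 mitochondrial genes rose, the ferredoxin Fdx1l (log2 0.61 ± 0.19 SE) among them, and 4 fell, Iba57 (-0.50 ± 0.11), the Hscb partner Hspa9 (-0.43 ± 0.11), Slc25a37 (-0.44 ± 0.13) and Isca1 (-0.25 ± 0.08); the list's median was -0.05. Of 9 cytosolic genes none was called, 1 with an unadjusted p under 0.05. Of 37 iron-sulfur protein genes 3 rose, Rsad2 (0.87 ± 0.24), Cdkal1 (0.62 ± 0.19) and Elp3 (0.54 ± 0.17), and none fell. In the PCBP2 knockdown Iba57 (-0.47 ± 0.11), Nfu1 (-0.51 ± 0.14), the cytosolic factor Ciao2b (-0.52 ± 0.15) and 3 cluster proteins, the complex I subunits Ndufs7 (-0.84 ± 0.17) and Ndufv1 (-0.45 ± 0.12) and the molybdenum cofactor enzyme Mocs1 (-0.76 ± 0.18), fell and none of these lists had a riser. Of the iron regulation genes Tfrc fell in the PCBP1 knockdown (-0.36 ± 0.10), beside Pcbp1 itself. Between the knockdowns 6 of the 37 iron-sulfur protein genes were lower with PCBP2 than with PCBP1 knocked down and none was higher. Hspa9 (0.65 ± 0.11) and Sdhaf1 (0.71 ± 0.21) were higher, and Nfu1 (-0.51 ± 0.14), Ciao2a (-0.47 ± 0.10), Ndufs7 (-0.79 ± 0.17), Dna2 (-0.59 ± 0.17), Nthl1 (-1.81 ± 0.54) and the ferrireductase Steap3 (-0.56 ± 0.15) were lower. Lyrm4, Isca2, Fdx1, Nubp1, Ndor1 and Ciao1 passed in none of these knockdown comparisons.

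Splicing was read from the authors' deposited tables, which compare each knockdown with the control of its day and give for each junction of a local splicing variation the percent spliced in (PSI, that junction's share of the choice), the expected PSI change and the probability that the change is at least 20 points. These are 1 pooled value a group, with no spread between libraries. The tables list 82 variations of the 8 genes at Day 0 and 69 at Day 2, and Fdxr has none at Day 2. At a probability of at least 0.95 none of them was called in any of the 4 tables, where 0.0573%, 0.0115%, 0.191% and 0.0718% of all variations were called (PCBP1 and PCBP2 at Day 0, then at Day 2).

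The highest probability belonged to Ciapin1 in the PCBP2 knockdown at Day 2, and to the 79-base exon shown above. In the authors' deposited table the junction that skips this exon (from 94825216 to 94823207) had a PSI of 5.8% in Day 2 controls and 34.4% in the PCBP2 knockdown, an expected change of 28.8 points with a probability of 0.921. The junction that includes it went from 93.2% to 64.3% in the authors' deposited table (expected change -28.1 points). Read from the downstream exon, the authors' deposited table gave a skip of 3.9% and 27.9% (expected change 24.2 points, probability 0.771). This is the same junction and the same reads, set against the other junctions that enter the downstream exon. At a probability of at least 0.90 it was the one call among the 69 variations, against 0.118% of all in the authors' deposited table. The authors' deposited tables for the other 3 comparisons had none for the 8 genes at that probability, against 0.0772% (PCBP1, Day 0), 0.0221% (PCBP2, Day 0) and 0.286% (PCBP1, Day 2) of all. An expected change of at least 10 points was listed for 0, 0, 1 and 3 variations of the 8 genes in the authors' deposited tables (PCBP1 and PCBP2 at Day 0, then at Day 2), against 0.643%, 0.377%, 2.34% and 1.61% of all.

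The same junction had lower values elsewhere. In the authors' deposited tables it had 12.3% in the PCBP1 knockdown at Day 2 (expected change 2.9 points), and at Day 0 it had 1.3% in controls, 2% with PCBP1 knocked down and 1.2% with PCBP2 knocked down. The tables hold no direct comparison of the knockdowns, so this difference was not tested. No GENCODE M21 transcript of Ciapin1 has the skipping junction, so no transcript count measures its use. Reads from other parts of an RNA without the exon can still be counted for Ciapin1. The exon length leaves a remainder of 1 after division by 3. Counted on the coding transcript with 8 coding exons and 309 codons, skipping would keep the first 246 codons and then read 28 others up to a stop in place of the last 63. The carboxy-terminal part of anamorsin is known to hold its cluster-binding cysteines. Of the 60 intron bases before the exon 9 were C (15%, longest run 4) and 19 were T. The motif CCCC, searched on the transcribed strand, occurs once, directly before the AG at the intron's end; 26.7% of 16869 windows of the same length before annotated 3′ splice sites that a retained-intron transcript covers hold it, and their median C content was 25%.

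**Figure D4:**
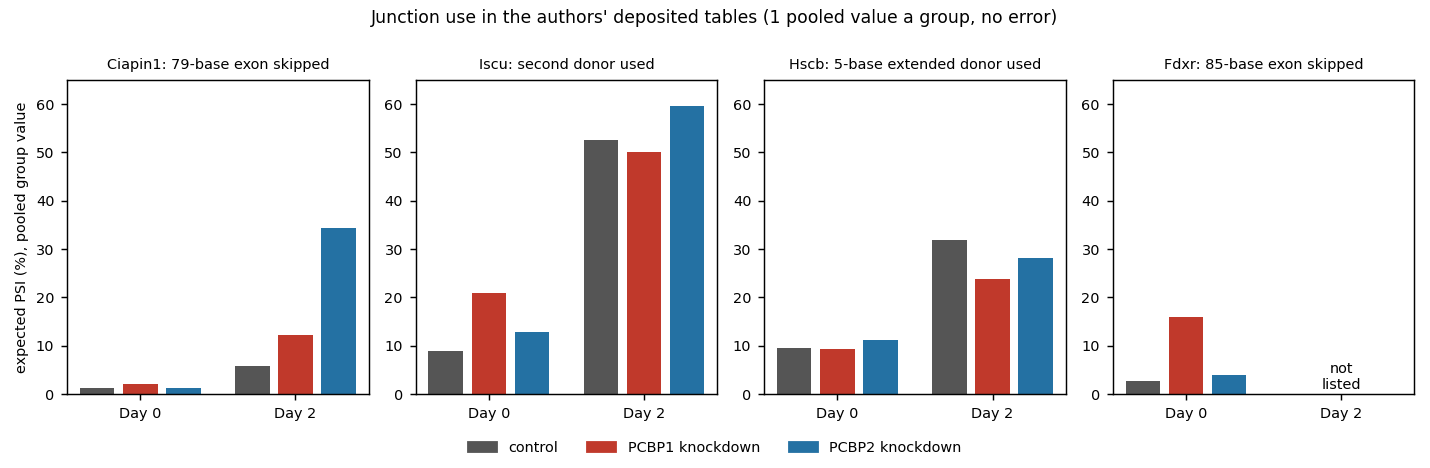
Expected PSI (%) of 4 alternative junctions in the authors' deposited tables, 1 pooled value a group and no error bar; Fdxr is not listed at Day 2. Skipping of the Ciapin1 exon reaches 34.4% in the PCBP2 knockdown at Day 2, use of the second Iscu donor is 8.9% in Day 0 controls and 52.5% in Day 2 controls, and skipping of the Fdxr exon is 16% in the PCBP1 knockdown at Day 0.

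Ciapin1 had further choices. The junction from 94828277 to 94825331 skips the coding exon that otherwise joins there from 94826635. In the authors' deposited tables it had 2.3% at Day 0 and 45.2% at Day 2 in controls. The authors' deposited tables gave it 31.1% and 52.8% in the PCBP1 and PCBP2 knockdowns at Day 2 (expected changes -10.0 and 3.0 points). The first exon of Ciapin1-209 had, in the authors' deposited tables, 69.1% in Day 2 controls, 86.1% in the PCBP1 knockdown and 86.6% in the PCBP2 knockdown (expected changes 8.3 and 13.4 points, probabilities 0.177 and 0.283). Its Day 0 values in the authors' deposited tables were 82.5%, 81.3% and 84.7%.

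Iscu changed its forms along with its level. In the authors' deposited tables the second donor shown above had 8.9% in Day 0 controls and 52.5% in Day 2 controls, and the first donor 90.6% and 46.3%. The same authors' deposited tables gave the second donor 20.9% at Day 0 (expected change 9.3 points, probability 0.00778) and 50.1% at Day 2 with PCBP1 knocked down, and 12.8% and 59.6% with PCBP2 knocked down. In the authors' deposited tables the first exon of Iscu-201, shared by Iscu-202 and Iscu-203, went from 92.3% to 31.7% between control days, that of Iscu-205 from 7.2% to 52.6% and that of Iscu-206 from 0.1% to 15.8%. The transcript estimates come from the same reads, with 1 value a library. Iscu-203, the transcript that uses the second donor, took 6.3, 6.5 and 6.4% of Iscu reads in Day 0 controls and 29.7, 29.4 and 30.2% at Day 2. Iscu-201 went from 80.4, 80.2 and 83.0% to 38.0, 36.4 and 35.5%. The estimates did not follow the first-exon values: Iscu-203 carries the first exon of Iscu-201 and took a larger share at Day 2. Iscu-205, which shares its first-exon junction with Iscu-204 and Iscu-207, took 9.39 to 11.9% of Iscu reads in Day 2 controls. For Iscu-201 and Iscu-203 no library of one day came near those of the other, and 3 libraries against 3 allow no exact two-sided permutation p below 0.1. In the PCBP1 knockdown at Day 2 Iscu-201 kept 48.5, 46.4 and 43.8% with hairpins 1, 3 and 4, all above the controls (46.3% ± 2.3 against 36.7% ± 1.2, SD, n = 3), while the PCBP2 knockdown had 34.2, 38.4 and 40.04%. Its junctions differed less from control in the PCBP1 knockdown at Day 2. In the authors' deposited table the first donor had 49.1% (expected change 1.5 points) and the first exon of Iscu-201 36.2% (3.2 points).

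Hscb used its 5-base longer donor in 9.6% at Day 0 and 31.9% at Day 2 in the controls of the authors' deposited tables, and in 23.9% and 28.1% in the PCBP1 and PCBP2 knockdowns at Day 2. GENCODE marks the transcript with this donor, Hscb-203, as subject to nonsense-mediated decay. It took 5.6, 6.0 and 7.3% of Hscb reads in Day 0 controls and 17.4, 16.0 and 19.7% at Day 2, so the rise of Hscb reads includes a larger share of this form. Its share at Day 2 was 13.3 to 18.3% in the PCBP1 knockdown and 16.1 to 20.1% in the PCBP2 knockdown, which overlap the controls.

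Fdxr, the gene lowered by PCBP1 knockdown, also had more skipping of its 85-base exon there. In the authors' deposited table the skip had 2.6% in Day 0 controls, 16% in the PCBP1 knockdown and 3.9% in the PCBP2 knockdown. For PCBP1 the authors' deposited table gave an expected change of 9.99 points with a probability of 0.0343, far below the threshold. Fdxr-204, the one annotated transcript with this junction, took 8.9, 4.6 and 2.6% of Fdxr reads with PCBP1 hairpins 1, 3 and 4, on 6.9 to 23.1 estimated reads, and 0.95 to 2.6% in controls, which overlapped hairpin 4. At Day 2 it had no reads in the 3 controls, 14.1, 7.0 and 3.0 estimated reads with Pcbp1 hairpins 1, 3 and 4, and 0, 2.5 and 5.8 with Pcbp2 hairpins 1, 3 and 4, so the knockdowns overlapped. GENCODE lists Fdxr-204 as a processed transcript without a coding sequence, and the coding transcript Fdxr-201 itself had 217.3, 264.7 and 236.3 estimated reads with Pcbp1 hairpins 1, 3 and 4, against 559.5 to 806.8 in controls.

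Genes whose levels followed each of the 8 most closely were taken over 18 libraries after centring each day on its mean, among genes of at least 4 CPM on average (log2 of 2); the correlations describe these libraries, which share their controls, depth and scaling, and have no p. Mettl26 (Pearson r 0.90), Man2b2 (0.87) and Epha8 (0.87) were most like Fdxr, and Rtf2 (0.94), Zfand6 (0.91) and Bin3 (0.90) most like Nfs1. For Iscu the closest were Grpel1 (0.77), Mtmr3 (0.75) and Irgm2 (0.75), the weakest likeness of the 8. Rnf114, the heme synthesis enzyme Uros (each 0.90) and Rnf181 (0.88) were closest to Hscb, and Rbm42 (0.95), Stk11 (0.94) and Mark2 (0.92) to Glrx5. In the cytosolic arm Map3k20 (0.97), Pcgf3 (0.92) and Wdr61 (0.90) were closest to Glrx3, Elob (0.97), D8Ertd738e (0.97) and Med25 (0.95) to Bola2, and Wasf2, Dok1 and Atg4d (each 0.95) to Ciapin1. No gene of the 8 was among another's closest 3.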

How the data were processed

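RNA was sequenced from 18 libraries in 6 groups of 3 (27.0 to 54.1 M estimated reads). Per the submitters' processing notes, FastQC 0.11.9, Trim Galore 1.46.0, STAR 2.5.3a, SAMtools 1.9, Salmon 0.11.3 and the build GRCm38 were used. The authors deposited, per transcript and library, Salmon estimated counts and TPM; TPM divides by effective length and by the library total. Tables of local splicing variations, whose tool is not given in the sources used here, hold the authors' deposited PSI values of pooled groups.

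Estimated counts of 110403 of 111706 transcripts matched GENCODE M21 and were summed over 46167 genes and rounded; unmatched transcripts held 0.275 to 0.579% of reads. edgeR 4.0.16 (TMM factors, filterByExpr, quasi-likelihood F test over 6 group means, 17500 genes, Benjamini-Hochberg adjustment over all of them) gave the tests; an adjusted p under 0.05 was called. The method was tested on simulated data with the same spread on both days, so that test does not cover a difference in spread between days. CPM values are TMM-scaled. DESeq2 1.42.0, no filter, library totals, TMM without globin genes, a GC correction, each day alone, a replicate block and each library left out were alternatives. The 8 genes and all lists were chosen with earlier results of these data known. Named beside the 8 were Pcbp1 and Pcbp2, set partners, up to 4 called genes each way per list by smallest p, and the 3 most correlated genes of at least 2 in mean log2 CPM; a few genes this rule names are not reported here.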

Additional observations from a re-analysis of the deposited data

How the results depend on the processing

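The number of the 8 genes called stayed at 8 in each of the 3 day comparisons, at 1 in the PCBP1 knockdown and between knockdowns at Day 0, and at 0 in the PCBP2 knockdown at Day 0, under every alternative run. In the PCBP1 knockdown at Day 2 it was 5, and 3 with library totals, 2 with the GC trend removed and 0 in the fit of 9 libraries; leaving out a library gave 1 to 5, with 1 (Ciapin1) without LUC-1 and 3 without hairpin 1 or 3. In the PCBP2 knockdown at Day 2 it was 2, and 4 without a filter, 4 with DESeq2, 1 with library totals, 1 with the GC trend removed and 0 with 9 libraries; leaving out a library gave 1 to 4, with 1 without LUC-1, hairpin 3 or hairpin 4 and 4 without SCR-1. Between knockdowns at Day 2 it was 1 (Nfs1), and 0 without a filter, 0 with 9 libraries and 0 or 1 with a library left out (0 without Pcbp2 hairpin 4). For the change of the PCBP1 effect it was 0, and 1 (Hscb) without a filter, 1 with DESeq2 and 0 or 1 with a library left out. The number called over all genes moved as well. For PCBP1 at Day 2 it was 2296, and 4080 with library totals. For PCBP2 at Day 2 it was 822, and 1168 without a filter, 1532 with DESeq2 and 1212 with library totals. Removal of the GC trend gave 1759 for PCBP1 and 328 for PCBP2, and leaving out LUC-1 gave 1485 and 862. For the change of the PCBP1 effect it was 68, and 505 without a filter and 593 with DESeq2. The cause of these shifts was not tested. Splicing calls were 0, and 1 at a probability of 0.90 and 4 at an expected change of 0.10 or more. No call of the 8 genes reversed; Cisd2 in controls reversed to -1.31 with library totals.

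Same-construct libraries of both days, and same-numbered hairpins, did not deviate together (correlations -0.009 to 0.042 and -0.045 to 0.070), so the numbers were not treated as paired; with a replicate block the Day 2 difference between knockdowns had 0 of the 8 genes called in place of 1 (Nfs1, adjusted p 0.153) and 738 genes in all in place of 2115, and at Day 0 244 genes were called in place of 49. Over all genes the 9-library fits called 899 in place of 2296 for PCBP1 and 30 in place of 822 for PCBP2 at Day 2, and 1074 in place of 154 for PCBP1 at Day 0; DESeq2 called 431 for the last. Library totals turned the Day 2 split for PCBP1 from 964 higher and 1332 lower to 3454 and 626, and for PCBP2 from 166 and 656 to 985 and 227. Of the 8 genes, Fdxr and Bola2 at Day 2, with at most 160 reads a library, are the most limited by depth.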
